A study of Homo sapiens with 54 samples.

Results

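The genes described here, 37 in number, encode enzymes of cholesterol and fatty acid synthesis, regulators of that synthesis and proteins of cholesterol efflux. They were taken as the rows of the expression table whose gene name or Entrez gene ID was on a list of these genes, and all 37 were found among 19225 rows. This list was chosen with earlier results of these data known, so shares of its genes called are a description and not a test. The list holds 18 enzymes of sterol synthesis, 5 genes of sterol regulation and transport, 11 enzymes of fatty acid synthesis and modification, and 3 genes of efflux and other targets of the liver X receptors. Each of the 37 genes passed the filter on low values in every line, a CPM (reads per 1000000 reads of the library's effective size) of 1 in at least 3 libraries.

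RNA was measured in 3 human prostate cancer cell lines. LNCaP was established from a metastasis in a lymph node, C4-2 was derived from LNCaP and grows without testicular androgen, and 22Rv1 was derived from a xenograft. Each line had 6 treatments of 3 libraries, 54 libraries in all: ethanol vehicle, estradiol (E2, 100 nM), the estrogen receptor beta ligand OSU-ERb-12 (100 nM), the androgen receptor antagonist enzalutamide (Enza, 1 µM), E2 with Enza, and OSU-ERb-12 with Enza. Every group was sampled 12 h after treatment in RPMI medium with 10% fetal bovine serum, and all 54 libraries carry the genotype label WT. The labels do not say that the serum was stripped of lipids or steroids, so the vehicle groups received whatever it held. The OSU-ERb-12 with Enza group is labelled WT with Enza, and its reading as OSU-ERb-12 rests on the same sample titles as the group without Enza. The labels call the 3 libraries of a group biological triplicates without saying whether passages or days differed, so p-values measure the spread between these libraries.

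Cholesterol is built from acetyl-CoA through mevalonate, squalene and lanosterol, and fatty acids from acetyl-CoA through malonyl-CoA. Both pathways are switched on by the SREBP transcription factors, which SCAP carries from the endoplasmic reticulum to the Golgi when sterols are low and which the INSIG proteins hold back. The liver X receptors sense oxysterols and switch on the transporters that move cholesterol out of the cell. In prostate cells, androgens are known to raise the expression of lipid synthesis genes, in part through SCAP.

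Library depth ran from 32819568 to 52417050 reads in genes, so that 1 read was worth 0.0204 to 0.0323 CPM. FKBP5 and KLK3, known targets of the androgen receptor, responded to both agents in each line: with E2 FKBP5 rose by 2.56, 1.42 and 2.22 log2 units in LNCaP, C4-2 and 22Rv1 and KLK3 by 0.50, 0.27 and 1.01. With Enza, FKBP5 fell by 0.60, 0.53 and 0.28 and KLK3 by 1.17, 0.52 and 0.62. All 9 luminal prostate markers examined had reads in every line, KLK3 at only 4.34 to 22.3 CPM in 22Rv1. Of the markers of other cell types, the 4 of 6 fibroblast genes with a row summed to at most 22.5 CPM, with LUM at 0 in C4-2, and the 2 of 5 leukocyte genes to at most 1.502 CPM. The basal keratin KRT14 (1 of 3 basal genes) reached at most 1.77 CPM and the adipocyte gene PLIN1 (1 of 3) at most 0.555 CPM. In such bulk samples, fewer cells of a type and less RNA per cell cannot be told apart. 3 libraries stood apart. C4-2 vehicle library 1 carries the line tag of 22Rv1 but correlated with the C4-2 mean at r = 0.9982, against 0.9641 with LNCaP and 0.8496 with 22Rv1. The share of mitochondrial ribosomal RNA was 0.196% in 22Rv1 vehicle library 3 and 0.149% in C4-2 E2 library 3, against at most 0.0974% in the others. Where leaving these 3 out ended a named gene's call within a line, or between lines at vehicle, the value without them is given. For effects tested among the 3 lines only the count without them is given. Differences of an effect between lines are given with all libraries only.

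The promoters of 4 genes are shown first, because their genes carry most of what follows: ELOVL5 responded to E2 in every line, HMGCS1 and NSDHL stand for the sterol enzymes, and ABCA1 for efflux. RefSeq (GRCh38.p14) gave promoters for 32 of the 37 genes, in 42 windows, and the 250 bases before a start site are printed 5′ to 3′ on the gene's strand. ACAT2, FDFT1, SQLE, FASN and ABCG1 had no window, so no site was searched for in them. Capitals mark CCAAT boxes (CCAAT, or ATTGG on the other strand), to which NF-Y binds beside SREBP, and E-boxes (CACGTG), which SREBP and other factors can bind.
ELOVL5, minus strand, chr6:53348951-53349200: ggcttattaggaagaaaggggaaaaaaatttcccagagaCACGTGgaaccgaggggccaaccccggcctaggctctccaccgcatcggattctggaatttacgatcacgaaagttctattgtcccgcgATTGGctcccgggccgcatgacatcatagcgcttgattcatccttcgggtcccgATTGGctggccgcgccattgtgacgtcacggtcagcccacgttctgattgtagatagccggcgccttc
HMGCS1, minus strand, chr5:43313413-43313662: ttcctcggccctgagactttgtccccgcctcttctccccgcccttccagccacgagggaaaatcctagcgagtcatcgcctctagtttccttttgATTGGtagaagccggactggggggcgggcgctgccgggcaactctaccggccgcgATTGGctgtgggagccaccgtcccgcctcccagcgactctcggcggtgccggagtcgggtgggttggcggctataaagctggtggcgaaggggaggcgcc
NSDHL, plus strand, chrX:152830813-152831062: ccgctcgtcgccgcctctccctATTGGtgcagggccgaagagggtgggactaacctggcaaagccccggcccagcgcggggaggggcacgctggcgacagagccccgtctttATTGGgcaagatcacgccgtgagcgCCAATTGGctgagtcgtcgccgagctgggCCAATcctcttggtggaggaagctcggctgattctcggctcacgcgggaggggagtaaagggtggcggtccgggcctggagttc
ABCA1, minus strand, chr9:104928156-104928405: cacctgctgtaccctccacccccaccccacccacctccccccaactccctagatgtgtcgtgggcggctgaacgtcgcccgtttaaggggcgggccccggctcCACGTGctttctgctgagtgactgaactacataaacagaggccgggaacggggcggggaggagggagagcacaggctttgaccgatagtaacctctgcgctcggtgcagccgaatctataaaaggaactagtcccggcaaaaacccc

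A CCAAT box lay in 15 of the 20 windows of sterol enzymes, 75%, in 3 of 5 of regulators, in 8 of 15 of fatty acid enzymes and in 1 of 2 of efflux genes, against 32% of all 35116 windows of the same length. HMGCS1 has boxes 155 to 151 and 100 to 96 bases before the start of the window printed. Its other window, chr5:43313182-43313431, holds no CCAAT box. ELOVL5 has boxes 122 to 118 and 68 to 64 bases before its start. NSDHL has 5, of which the pair at 113 to 109 and 110 to 106 bases before the start overlap. An E-box lay in 2 of the 20 windows of sterol enzymes, both of SC5D, which overlap and share the box. It lay in 2 of 5 of regulators (INSIG1 and SCAP), in 1 of 15 of fatty acid enzymes (ELOVL5) and in 1 of 2 of efflux genes (ABCA1). The share over all windows was 6.34%, near the 10% of sterol and 6.67% of fatty acid windows. The sterol response element core TCACNCCAC, searched on both strands like the others, was found for SREBF2 only, 133 to 125 bases before its start, against 0.883% of all windows. Exact copies of the spaced repeat bound by liver X receptors (GGTCANNNNNGGTCA, 0.0769% of all windows) and of a steroid receptor palindrome (GNACANNNTGTNC, 0.327%) were in none of the 42. A match is a description of letters. Sites that differ from these letters, in ABCA1 or elsewhere, were not searched, so a missing match does not mean a missing site. These windows hold no sites further away.

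With E2 the elongase genes ELOVL5 and ELOVL7 rose in all 3 lines, and 6 and 12 of the 18 sterol enzymes rose in LNCaP and 22Rv1. Of the 3 efflux and liver X receptor genes, ABCA1 and ABCG1 were called lower in LNCaP, ABCG1 in C4-2 and MYLIP in 22Rv1. That is 66.7%, 33.3% and 33.3% of the 3, against 24.9%, 5.82% and 27.7% of all genes, so the 22Rv1 share is near that of all genes. In LNCaP, 19 of the 37 genes were called at an adjusted p under 0.05 (limma, Benjamini-Hochberg over all genes tested), 14 higher and 5 lower, against 24.9% of all genes. In C4-2, 5 were called, 2 higher and 3 lower, against 5.82% of all genes. In 22Rv1, 18 were called, 17 higher and 1 lower, against 27.7% of all genes. ELOVL5 and ELOVL7 were called higher in all 3 lines, and 9 more in LNCaP and 22Rv1: HMGCS1, IDI1, FDFT1, MSMO1, NSDHL, SC5D, SCAP, ELOVL1 and FADS1. ELOVL6 and ABCG1 were called lower in LNCaP and C4-2. The balance of directions depended on scaling: with libraries scaled by total reads the calls were 7 higher and 7 lower in LNCaP, 4 higher and 2 lower in C4-2 and 7 higher and 4 lower in 22Rv1, and with cyclic loess 4 higher and 3 lower in C4-2 and 7 higher and 5 lower in 22Rv1. Leaving out vehicle library 2, vehicle library 3 or E2 library 1 of C4-2 gave 3 calls there, and leaving out the libraries that stood apart gave 2 there and 19 in 22Rv1, 18 higher and 1 lower. With each library left out in turn, 14 of 19 calls in LNCaP, 3 of 5 in C4-2 and 11 of 18 in 22Rv1 always held.

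With Enza the elongase genes ELOVL5 and ELOVL7 fell and ABCA1 and ABCG1 rose in LNCaP and C4-2, and no gene of the 37 was called in 22Rv1. In LNCaP, 13 genes were called with Enza against vehicle, 4 higher and 9 lower, against 20.4% of all genes. In C4-2, 8 were called, 3 higher and 5 lower, against 8.44% of all genes. With total read scaling the C4-2 split was 4 higher and 3 lower. In 22Rv1 limma called 0, against 0.659% of all genes, and 0 with voom weights. There 2 of the 37 (ACACA and ELOVL6) had an unadjusted limma p under 0.05, against 14.8% of all genes. The widest of the 95% intervals reached -0.50. FDFT1, ACACA, ELOVL5 and ELOVL7 were called lower and ABCA1 and ABCG1 higher in both LNCaP and C4-2. In C4-2 leaving out vehicle library 1 gave 3 calls, vehicle library 3 or Enza library 2 gave 4, vehicle library 2 or Enza library 3 gave 5, and the libraries that stood apart gave 3. The E2 and Enza comparisons share their vehicle libraries, so their directions are not independent of each other. Over both agents and all lines 29 of the 37 genes were called at least once; PMVK, SQLE, LSS, SREBF2, STARD4, ACSS2, ACLY and SCD were not.

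**Figure D1:**
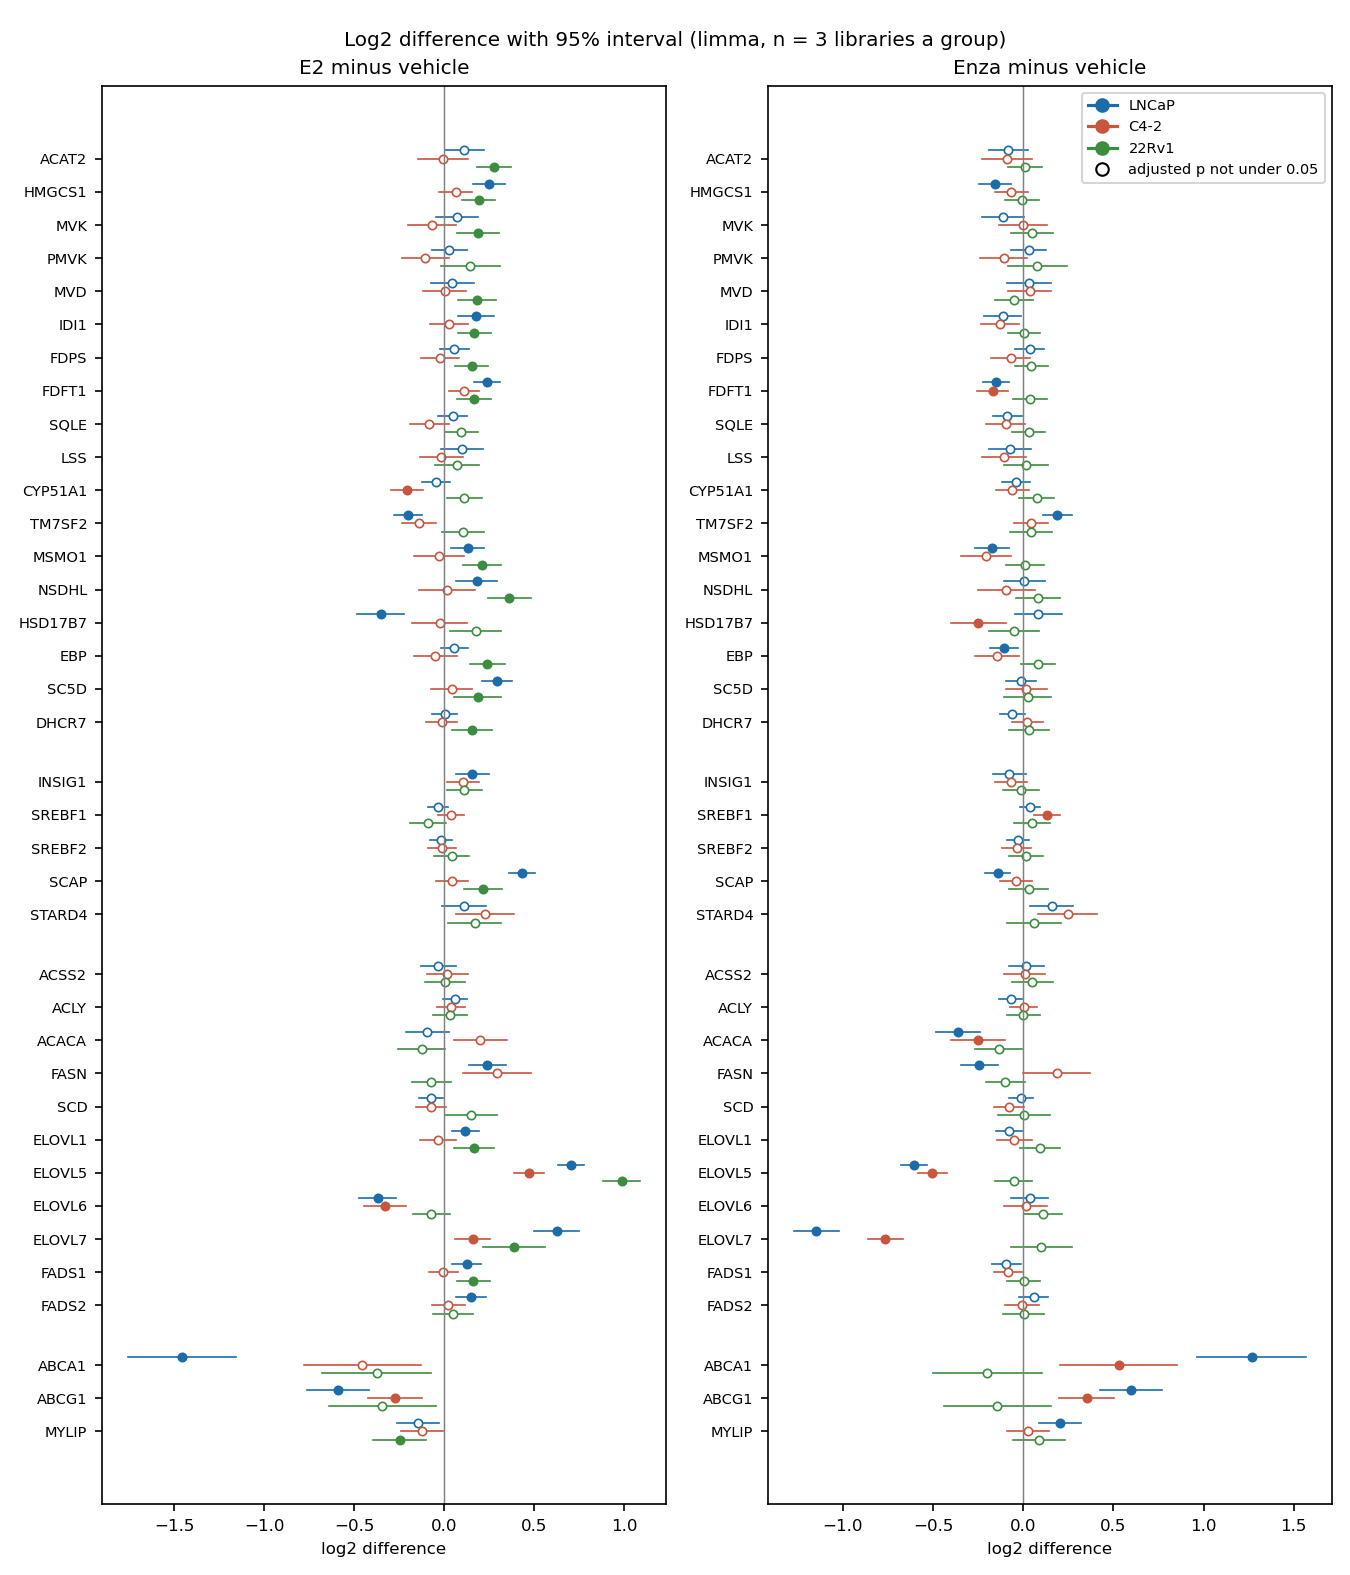
Log2 difference from vehicle of each of the 37 genes with E2 (left) and Enza (right), with 95% intervals, by line (3 libraries a group); filled points passed an adjusted p of 0.05. ELOVL5 and ELOVL7 lie to the right with E2 in all 3 lines and to the left with Enza in LNCaP and C4-2. ABCA1 and ABCG1 lie to the left with E2 in all 3 lines, with open points for both in 22Rv1 and for ABCA1 in C4-2. With Enza these 2 genes lie to the right in LNCaP and C4-2.

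ELOVL5 (chr6:53267404-53348950), which elongates polyunsaturated fatty acids, had the smallest adjusted p of the 37 genes with E2 in every line. In LNCaP it stood at 388, 361 and 358 CPM with vehicle and at 595.5, 609.8 and 599 CPM with E2. In C4-2 the values were 504.5, 493 and 499.6 CPM with vehicle and 689.8, 696 and 691 CPM with E2. In 22Rv1 they were 117, 119 and 122 CPM with vehicle and 233, 239.5 and 238 CPM with E2. The groups did not overlap in any line, and the differences were 0.70 ± 0.04 (SE, adjusted p = 5.75e-15), 0.47 ± 0.04 (3.97e-09) and 0.99 ± 0.05 (4.65e-15) log2 units in LNCaP, C4-2 and 22Rv1. Between lines the E2 difference was larger in 22Rv1 than in LNCaP by 0.28 ± 0.06 (adjusted p = 0.000499) and smaller in C4-2 than in LNCaP (-0.23 ± 0.06, adjusted p = 0.00773).

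With Enza, ELOVL5 was at 249, 239 and 239 CPM in LNCaP and at 353.5, 342 and 359.9 CPM in C4-2, below every vehicle library of the line. It fell by 0.61 (SE 0.04, adjusted p = 3.43e-13) in LNCaP and by 0.50 (SE 0.04, adjusted p = 1.15e-09) in C4-2. In 22Rv1 the Enza libraries held 114, 123 and 108 CPM, which overlapped vehicle, and the difference was -0.05 (95% interval -0.15 to 0.05, adjusted p = 0.644). The Enza difference of 22Rv1 lay above that of LNCaP by 0.55 ± 0.06 (adjusted p = 7.6e-10).

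ELOVL7 (chr5:60751791-60844269), an elongase of saturated and monounsaturated very long chains, stood at 50.2, 44.2 and 45.0 CPM with vehicle in LNCaP, at 72.4, 70.7 and 72.6 CPM with E2 and at 22.9, 19.5 and 19.7 CPM with Enza. The 3 groups were apart: ELOVL7 rose by 0.63 ± 0.06 with E2 (adjusted p = 4.28e-09) and fell by 1.15 with Enza (SE 0.06, adjusted p = 3.2e-14). In C4-2 vehicle libraries held 124, 119.5 and 113 CPM, E2 libraries 134, 133 and 131 CPM and Enza libraries 68.4, 66.8 and 74.1 CPM. The E2 difference there was 0.16 ± 0.05 (adjusted p = 0.0422), which lost its call without any library but vehicle 1 (adjusted p 0.0753 to 0.182) and without the libraries that stood apart (0.20, adjusted p = 0.059). The Enza difference in C4-2 was -0.76 ± 0.05 (adjusted p = 9.77e-12), and it kept its call without each library. In 22Rv1 ELOVL7 was low, 13.1, 13.4 and 14.6 CPM with vehicle, 16.2, 19.5 and 18.6 CPM with E2 and 14.8, 16.3 and 13.1 CPM with Enza. There it rose by 0.39 ± 0.08 with E2 (adjusted p = 0.0012), and the Enza difference was 0.10 (95% interval -0.07 to 0.27). Relative to LNCaP, the Enza difference was 1.25 ± 0.10 higher in 22Rv1 (adjusted p = 6.18e-14) and 0.38 ± 0.10 higher in C4-2 (adjusted p = 0.0142).

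**Figure D2:**
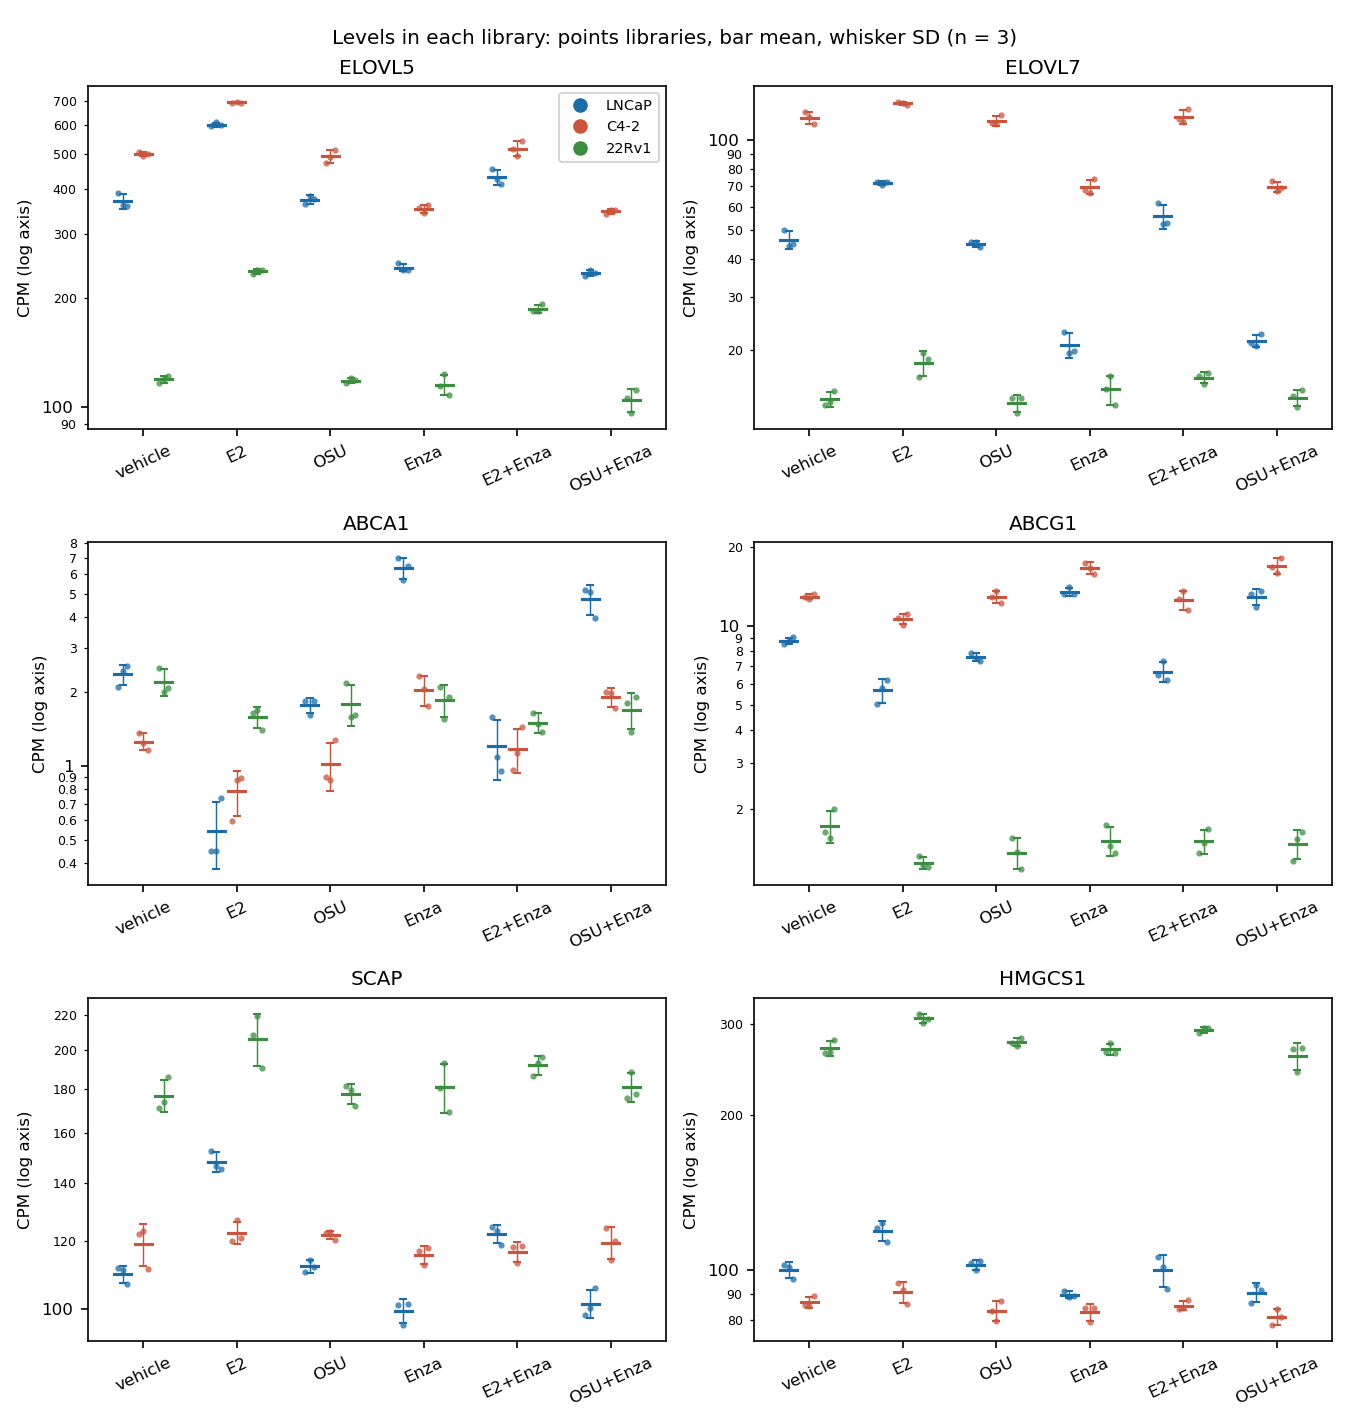
CPM (log axis) of ELOVL5, ELOVL7, ABCA1, ABCG1, SCAP and HMGCS1 in each library (points) by treatment and line, with the group mean (bar) and SD (whisker, n = 3). In LNCaP ELOVL5 runs from 239 CPM with Enza to 609.8 CPM with E2, and ABCA1 runs the other way, from 0.449 CPM with E2 to 6.95 CPM with Enza.

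Of the other fatty acid genes, the elongase ELOVL6, which extends palmitate, went down with E2. In LNCaP it was at 40.3, 40.04 and 43.1 CPM with vehicle and 32.6, 30.3 and 32.4 CPM with E2, and it fell by 0.37 (SE 0.05, adjusted p = 1.72e-06). In C4-2 it went from 34.5, 33.8 and 37.1 CPM to 29.2, 25.9 and 28.6 CPM, a fall by 0.33 (SE 0.06, adjusted p = 0.000331). In 22Rv1 the difference was -0.07 (95% interval -0.18 to 0.03), higher than in LNCaP by 0.30 ± 0.08 (adjusted p = 0.00448). ELOVL6 was not called with Enza in any line, with differences of 0.04, 0.01 and 0.11. The E2 calls of the 4 elongases went both ways, and ELOVL1, an elongase of very long chains, rose by 0.12 in LNCaP and by 0.17 in 22Rv1.

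FASN, fatty acid synthase, was at 1796, 1654 and 1656 CPM with vehicle in LNCaP, at 2110.0, 1874 and 2050.0 CPM with E2 and at 1375, 1519 and 1418 CPM with Enza. It rose by 0.24 ± 0.05 with E2 (adjusted p = 0.000529) and fell by 0.24 with Enza (SE 0.05, adjusted p = 0.000708). In C4-2 the FASN difference with E2 was 0.29 ± 0.09 (adjusted p = 0.0568) and that with Enza 0.19 ± 0.09 (adjusted p = 0.208), the latter above the LNCaP difference by 0.43 ± 0.10 (adjusted p = 0.0104). ACACA, the acetyl-CoA carboxylase that makes malonyl-CoA, fell with Enza in LNCaP, from 85.9, 75.6 and 69.9 CPM to 58.2, 62.8 and 58.2 CPM (by 0.36, SE 0.06, adjusted p = 3.81e-05). In C4-2 it went from 99.9, 98.5 and 102 CPM to 90.3, 86.5 and 76.3 CPM, by -0.25 (adjusted p = 0.0294), a call lost without any library but Enza 1 (0.0631 to 0.187) and without the libraries that stood apart (0.0516). ACACA overlaps C17orf78, and the strand used in counting is not given in the sources used here.

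The desaturases FADS1 and FADS2 act beside ELOVL5 on polyunsaturated fatty acids. FADS1 rose by 0.13 in LNCaP and by 0.16 in 22Rv1 with E2, and FADS2 by 0.15 in LNCaP. The LNCaP call of FADS1 was lost without vehicle library 2 or E2 library 2 (adjusted p 0.0592 and 0.0959). FADS1 and FADS2 overlap each other in the annotation. SCD, the stearoyl-CoA desaturase, was called in none of the 3 lines with E2 (-0.07, -0.07 and 0.15), and the difference of 22Rv1 lay above that of LNCaP by 0.23 ± 0.06 (adjusted p = 0.00559). As a group, the 11 fatty acid genes had 6 higher and 1 lower calls with E2 in LNCaP, 2 and 1 in C4-2 and 4 and 0 in 22Rv1. Called genes were 63.6%, 27.3% and 36.4% of the 11, against 24.9%, 5.82% and 27.7% of all genes. Fatty acid genes outside the list, described further below, had 2 higher and 7 lower calls in LNCaP, 2 and 2 in C4-2 and 7 and 2 in 22Rv1. Medians of the 11 listed genes were 0.12, 0.02 and 0.05 log2 units, against -0.01, -0.03 and 0.03 over all genes. The 22Rv1 median changed sign with total read scaling (-0.02, 2 higher and 1 lower) and with cyclic loess (-0.02, 2 higher and 3 lower). With Enza 4 of the 11 fell in LNCaP, 36.4% against 20.4% of all genes called, and 3 in C4-2, 27.3% against 8.44% (2 with total read scaling, with cyclic loess or without the libraries that stood apart), and none rose.

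With E2 the sterol enzymes rose by small amounts, 0.13 to 0.36 log2 units among those called higher. Of the 18 enzymes, 12 rose and 0 fell in 22Rv1, 6 rose and 2 fell in LNCaP, and 0 rose and 1 fell in C4-2. That is 66.7%, 44.4% and 5.56% called, against 27.7%, 24.9% and 5.82% of all genes. Calls over all genes in 22Rv1 also leaned upward, with 17.1% higher and 10.6% lower. The medians over the 18 were 0.17, 0.06 and -0.02 log2 units, against 0.03, -0.01 and -0.03 over all genes. Scaling by total reads left 4 higher and 0 lower in 22Rv1 (median 0.11) and 3 higher and 2 lower in LNCaP (median 0.01), and it turned the C4-2 median to 0.01. Without the libraries that stood apart the C4-2 median was 0.03 and no sterol enzyme was called there. Cyclic loess left 4 higher and 0 lower in 22Rv1 (median 0.09) and turned the C4-2 median to 0.02. In each E2 library of 22Rv1 the median of the 18 genes lay 0.13 to 0.19 above the vehicle mean, and in each vehicle library between -0.03 and 0.05.

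In 22Rv1 the largest called sterol difference with E2 was that of NSDHL (chrX:152831063-152869729), a sterol dehydrogenase that takes part in removing methyl groups from the ring. It was at 22.8, 25.0 and 25.9 CPM with vehicle and at 32.7, 32.09 and 30.2 CPM with E2, and rose by 0.36 ± 0.06 (adjusted p = 4.63e-05). ACAT2, the cytosolic thiolase at the head of the pathway, went from 47.4, 48.0 and 50.6 CPM to 59.6, 60.2 and 57.5 CPM, a rise of 0.28 ± 0.05 (adjusted p = 6.7e-05). EBP, the sterol isomerase, rose by 0.24 ± 0.05 (adjusted p = 0.000424) and MSMO1, the methyl sterol oxidase, by 0.21 ± 0.05 (adjusted p = 0.0033). These 4 kept their calls under total read scaling, under cyclic loess and without each library. The other 8, HMGCS1, MVK, MVD, IDI1, FDPS, FDFT1, SC5D and DHCR7, rose by 0.15 to 0.19 and lost their calls under both scalings; DHCR7 also lost its call without the libraries that stood apart (adjusted p = 0.0601). ACAT2 overlaps TCP1 and SOD2 in the annotation, MVK overlaps MMAB and IDI1 overlaps WDR37, so reads may be shared.

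HMGCS1 (chr5:43287470-43313412), the HMG-CoA synthase, was at 102.5, 102 and 96.1 CPM with vehicle in LNCaP, at 121, 123 and 113.5 CPM with E2 and at 91.3, 88.7 and 89.2 CPM with Enza. None of the 3 groups overlapped another; HMGCS1 rose by 0.25 ± 0.04 with E2 (adjusted p = 5.42e-05) and fell by 0.16 with Enza (SE 0.04, adjusted p = 0.0104). In 22Rv1 it went from 263, 264 and 279 CPM to 314, 301 and 306 CPM with E2, a rise of 0.19 ± 0.05 (adjusted p = 0.00295). In C4-2 it was at 85.7, 85.5 and 89.1 CPM with vehicle and 94.5, 91.7 and 86.1 CPM with E2, groups that overlapped, and the difference lay below that of LNCaP (-0.19 ± 0.06, adjusted p = 0.0466).

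FDFT1, squalene synthase, was at 214, 204 and 207 CPM with vehicle in LNCaP and at 247, 247 and 244 CPM with E2, and rose by 0.24 ± 0.03 (adjusted p = 4.27e-06). With Enza it fell in LNCaP by 0.15 (SE 0.03, adjusted p = 0.00233) and in C4-2 by 0.17 (SE 0.04, adjusted p = 0.00925). The C4-2 call was lost without vehicle library 1 (adjusted p = 0.067) and without the libraries that stood apart (0.053). SC5D, the desaturase near the end of the pathway, rose in LNCaP from 59.5, 60.4 and 58.8 CPM to 71.7, 73.0 and 74.98 CPM, by 0.30 ± 0.04 (adjusted p = 1.8e-06). IDI1, the isopentenyl diphosphate isomerase, rose by 0.18, NSDHL by 0.18 and MSMO1 by 0.13 in LNCaP. MSMO1 lost its call without any library but vehicle 2 (adjusted p 0.0575 to 0.113), and NSDHL without vehicle library 2 or E2 library 1 (0.0766 and 0.106).

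Lower calls came from TM7SF2 and HSD17B7, a sterol reductase and a sterol ketoreductase of the later steps, which fell with E2 in LNCaP. TM7SF2 went from 89.4, 90.4 and 87.3 CPM to 81.8, 73.0 and 77.6 CPM, by -0.20 ± 0.04 (adjusted p = 0.000225), and was at 107, 96.5 and 102 CPM with Enza, a rise of 0.19 ± 0.04 (adjusted p = 0.000708). HSD17B7 went from 20.1, 21.2 and 22.3 CPM to 15.7, 16.0 and 17.9 CPM, by -0.35 ± 0.06 (adjusted p = 0.00011). Its E2 difference lay 0.33 ± 0.10 higher in C4-2 (adjusted p = 0.0256) and 0.53 ± 0.10 higher in 22Rv1 (adjusted p = 8.14e-05) than in LNCaP. HSD17B7 has a near-identical pseudogene, so its values are uncertain. CYP51A1, the lanosterol demethylase, was called with E2 in C4-2, where it went from 168, 164.5 and 163 CPM to 147, 148 and 135 CPM with E2 (-0.21 ± 0.04, adjusted p = 0.00379). CYP51A1 kept that call without each single library, but without the libraries that stood apart (vehicle 1 and E2 3 here) its difference was -0.15 (adjusted p = 0.164).

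With Enza, HMGCS1, FDFT1, MSMO1 and EBP fell and TM7SF2 rose in LNCaP, and FDFT1 and HSD17B7 fell in C4-2. These are 27.8% and 11.1% of the 18 sterol enzymes, near the 20.4% and 8.44% of all genes called, and in C4-2 none was called without the libraries that stood apart. The medians over the 18 were -0.07 and -0.09 log2 units, against 0.00 and -0.02 over all genes. In 22Rv1 the Enza median of the sterol enzymes was 0.03, against 0.02 over all genes, and it was -0.01 with total read scaling and with cyclic loess. EBP fell by 0.11 in LNCaP (adjusted p = 0.0415), a call lost without 4 of the 6 libraries (adjusted p 0.0689 to 0.156), and HSD17B7 fell by 0.25 in C4-2 (adjusted p = 0.0368), a call kept only without vehicle library 2 (0.0625 to 0.161 without the others, 0.143 without those that stood apart).

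**Figure D3:**
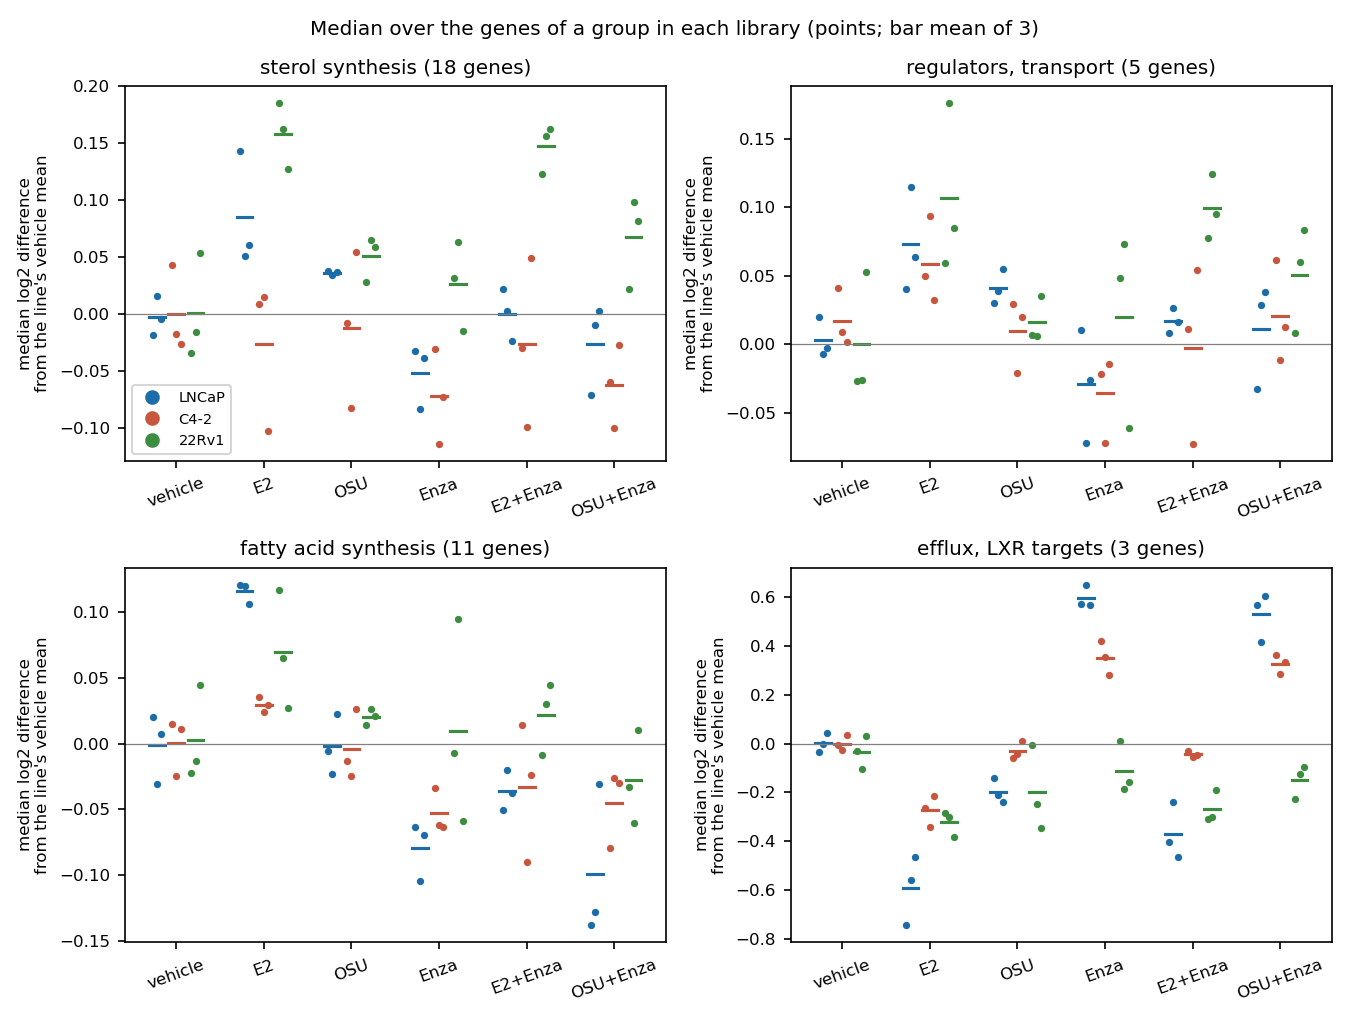
Median log2 difference from the line's vehicle mean over the genes of a group, in each library (points; bar, mean of 3), for 18 sterol genes, 5 regulator and transport genes, 11 fatty acid genes and 3 efflux genes. Each panel has its own axis. The efflux genes lie below 0 with E2 in all 3 lines, at -0.38 to -0.28 in 22Rv1, and above 0 with Enza in LNCaP and C4-2. The sterol genes of 22Rv1 lie between 0.13 and 0.19 with E2.

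Of the regulators, SCAP (chr3:47413681-47477127), the escort protein of the SREBPs, had the largest called differences with E2. In LNCaP it was at 111, 111 and 107 CPM with vehicle, 153, 147 and 145.5 CPM with E2 and 101, 95.7 and 101 CPM with Enza. The groups did not overlap, and SCAP rose by 0.43 ± 0.03 with E2 (adjusted p = 7.15e-11) and fell by 0.14 with Enza (SE 0.03, adjusted p = 0.00366). In 22Rv1 it went from 171, 174 and 186 CPM to 208.5, 219 and 190.5 CPM with E2, a rise of 0.22 ± 0.05 (adjusted p = 0.00358). In C4-2 the vehicle libraries held 122, 123 and 111 CPM and the E2 libraries 120.0, 127 and 121 CPM, which overlapped, and the difference of 0.04 lay below that of LNCaP, by a difference of -0.39 ± 0.06 (adjusted p = 1.4e-05).

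INSIG1, which retains SCAP when sterols are high, rose by 0.16 with E2 in LNCaP (adjusted p = 0.0101), a call lost without vehicle library 2, E2 library 1 or E2 library 2 (0.059 to 0.075). SREBF1 and SREBF2, the genes of the SREBPs, were not called with E2 in any line, with differences between -0.09 and 0.04. SREBF1 rose by 0.13 with Enza in C4-2 (adjusted p = 0.019), a call lost without any library but Enza 1 (0.052 to 0.0869) and without the libraries that stood apart (0.0706). SREBF1 overlaps RAI1. STARD4, a carrier of cholesterol inside the cell, was not called with E2 or Enza alone in any line. Its differences from vehicle with each agent given alone ran from 0.06 to 0.25 over the 3 lines.

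Efflux genes fell with E2 and rose with Enza in LNCaP, and ABCA1 had the largest difference of the 37 with each agent there. ABCA1 (chr9:104781006-104928155), which loads cholesterol onto lipid-poor apolipoprotein, was at 2.09, 2.42 and 2.53 CPM with vehicle, at 0.449, 0.449 and 0.735 CPM with E2 and at 6.95, 5.67 and 6.46 CPM with Enza. The 3 groups were far apart; on the log2(CPM + 0.5) scale ABCA1 fell by 1.46 with E2 (SE 0.15, adjusted p = 8.51e-09) and rose by 1.27 ± 0.15 with Enza (adjusted p = 2.28e-07). ABCA1 was a low gene, with 20 to 291 reads in a library, and the added 0.5 CPM shrinks its differences. In C4-2 it was at 1.36, 1.24 and 1.16 CPM with vehicle, 0.598, 0.874 and 0.887 CPM with E2 and 2.32, 2.04 and 1.75 CPM with Enza. These groups did not overlap either, but the E2 difference of -0.45 missed the threshold (adjusted p = 0.096), and the Enza rise of 0.53 (adjusted p = 0.0371) lost its call without any library but Enza 3 (0.0722 to 0.12) and without the libraries that stood apart (0.0677). In 22Rv1 the values were 2.5, 1.99 and 2.08 CPM with vehicle, 1.64, 1.68 and 1.39 CPM with E2 and 2.09, 1.55 and 1.90 CPM with Enza, and the differences were -0.38 (adjusted p = 0.0587) and -0.20 (adjusted p = 0.54). Set against LNCaP, the E2 difference was 1.00 ± 0.20 higher in C4-2 (adjusted p = 0.000356) and 1.08 ± 0.20 higher in 22Rv1 (adjusted p = 6.79e-05), and the Enza difference lay at -0.74 ± 0.20 and -1.47 ± 0.20 (adjusted p = 0.0201 and 3.04e-07).

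ABCG1 (chr21:42199689-42297244), which passes cholesterol to lipoprotein particles, was called in the same directions as ABCA1 in LNCaP. In LNCaP it was at 8.53, 8.71 and 9.04 CPM with vehicle, at 5.03, 5.79 and 6.20 CPM with E2 and at 13.3, 14.0 and 13.2 CPM with Enza. ABCG1 fell by 0.59 with E2 (SE 0.08, adjusted p = 3.99e-06) and rose by 0.60 ± 0.08 with Enza (adjusted p = 5.76e-06). In C4-2 the values were 12.9, 12.7 and 13.2 CPM, 10.7, 10.1 and 11.1 CPM, and 17.4, 16.7 and 15.8 CPM, with no overlap between groups. It fell there by 0.27 with E2 (adjusted p = 0.024), a call lost without any library but E2 3 (0.0532 to 0.0871), without the libraries that stood apart (0.0856) and with total read scaling, and rose by 0.35 ± 0.07 with Enza (adjusted p = 0.00262), a call kept without each library. In 22Rv1 ABCG1 was low, 1.54 to 1.99 CPM with vehicle, 1.20 to 1.32 CPM with E2 and 1.36 to 1.73 CPM with Enza, and was not called. Its E2 values lay below its vehicle values without overlap, as did those of ABCA1 there. Over all genes in 22Rv1, 16.7% lay wholly below vehicle with E2. The median E2 difference of the 3 efflux and liver X receptor genes was -0.34 in 22Rv1 and -0.27 in C4-2. MYLIP, a liver X receptor target whose product limits the uptake of lipoproteins, rose by 0.20 with Enza in LNCaP (adjusted p = 0.0111) and fell by 0.25 with E2 in 22Rv1 (adjusted p = 0.0113). The MYLIP call in LNCaP was lost without vehicle library 3 or Enza library 3 (adjusted p 0.0708 and 0.0712), and ABCA1 overlaps NIPSNAP3B in the annotation.

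When E2 was added to Enza, ELOVL5 rose in all 3 lines and efflux genes fell in LNCaP and C4-2. In LNCaP 18 of the 37 differed between E2 with Enza and Enza alone, 11 higher and 7 lower, against 23.1% of all genes; total read scaling gave 7 higher and 8 lower. In C4-2, 6 differed, 4 higher and 2 lower, against 7.38% of all genes; total read scaling gave 4 higher and 4 lower. In 22Rv1, 8 differed, 6 higher and 2 lower, against 7.94% of all genes, and 5 did so without E2 with Enza library 2. ELOVL5 rose in all 3 lines, to 453, 425 and 412.5 CPM in LNCaP, 513.6, 492.5 and 541.5 CPM in C4-2 and 184, 184 and 192 CPM in 22Rv1, by 0.83, 0.55 and 0.69 log2 units (adjusted p = 1.28e-16, 1.25e-10 and 1.74e-11). ELOVL7 rose by 1.40 in LNCaP, to 61.7, 52.5 and 52.8 CPM, and by 0.77 in C4-2, to 118, 115 and 126.5 CPM (adjusted p = 1.47e-16 and 5.56e-12).

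ABCA1 fell by 2.02 in LNCaP when E2 was added to Enza, to 1.57, 1.08 and 0.951 CPM (adjusted p = 1.19e-11), and by 0.61 in C4-2, to 0.957, 1.12 and 1.43 CPM (adjusted p = 0.0158). The C4-2 call was lost without Enza library 1 or 2 or E2 with Enza library 1 (0.0568 to 0.0967). ABCG1 fell by 0.97 and 0.39 (adjusted p = 5.27e-10 and 0.000648). Among the other LNCaP calls, SCAP, ACACA, FASN and FDFT1 rose by 0.30, 0.31, 0.28 and 0.18, and STARD4 and MYLIP fell by 0.29 each. In 22Rv1 the sterol enzymes ACAT2, MVD, IDI1 and MSMO1 rose by 0.25, 0.22, 0.18 and 0.16, INSIG1 rose by 0.19, and ELOVL6 and MYLIP fell by 0.19 and 0.35. Of the 8 calls in 22Rv1, 4 held when each library was left out in turn, and MSMO1 had a limma adjusted p of 0.0442. MVD here is the decarboxylase that ends the mevalonate steps.

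The same libraries set against E2 alone show what Enza did in the presence of E2. In LNCaP 19 genes differed, 4 higher and 15 lower, against 13.5% of all genes. In C4-2, 2 differed, 1 higher and 1 lower, against 3.46% of all genes, with 1 higher and 2 lower under total read scaling, 1 higher and 4 lower with cyclic loess, and a count of 4 without E2 with Enza library 3. In 22Rv1 1 differed, against 1.2% of all genes. That gene was ELOVL5, which was lower with Enza in each line, by -0.48, -0.43 and -0.35 (adjusted p = 6.39e-11, 6.54e-08 and 8.27e-05). In LNCaP the falls included 7 sterol enzymes (SC5D by 0.25, HMGCS1 by 0.26, FDFT1 by 0.21), 3 regulators with SCAP by 0.28, and 5 fatty acid genes with FADS1 by 0.28 and ELOVL7 by 0.37. ABCA1 rose by 0.70 (adjusted p = 0.00119), and ELOVL6, TM7SF2 and HSD17B7 rose by 0.21, 0.18 and 0.22.

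Whether E2 acted differently with Enza than without it was tested as an interaction. In LNCaP 7 genes were called, 2 higher and 5 lower, against 9.05% of all genes; total read scaling gave 2 higher and 3 lower. ELOVL7 had the largest, 0.78 log2 units (adjusted p = 3.67e-07): E2 raised it by 0.63 alone and by 1.40 over Enza. ACACA had 0.40 (adjusted p = 0.00188), STARD4 -0.40 (adjusted p = 0.00209), FADS2 -0.25 (adjusted p = 0.00406), SC5D -0.23 (adjusted p = 0.00807), FADS1 -0.19 (adjusted p = 0.0303) and ABCG1 -0.38 (adjusted p = 0.0458). SC5D and FADS2, which rose with E2 alone, stood at 65.1, 57.8 and 62.1 CPM and at 749.8, 759 and 752 CPM with E2 and Enza, groups that overlapped their vehicle libraries. The calls of FADS1 and ABCG1 were lost without 7 and 9 of the 12 libraries taken out singly (adjusted p 0.0519 to 0.0937 and 0.069 to 0.122), and ABCG1 also lost it with voom weights.

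In C4-2, 2 genes had an interaction, 1 higher and 1 lower, against 1.5% of all genes: ELOVL7 at 0.61 (adjusted p = 2.21e-06) and STARD4 at -0.47 (adjusted p = 0.0333). STARD4 was at 16.2, 14.7 and 15.6 CPM with vehicle, 19.5, 17.3 and 17.95 CPM with E2, 19.1, 18.6 and 17.7 CPM with Enza and 15.6, 14.6 and 16.7 CPM with both. Its values with E2 or Enza alone lay above those with neither or both, but the call was lost without 8 of the 12 libraries (adjusted p 0.0581 to 0.0931): vehicle 2 and 3, E2 1 and 3, Enza 1 and 2, and E2 with Enza 1 and 2. It was also lost without the libraries that stood apart (-0.51, adjusted p = 0.0713). In 22Rv1 limma called 0, against 0.424% of all genes, with 3 genes at an unadjusted p under 0.05 (NSDHL, ELOVL5 and ELOVL7) and 0 with voom weights. ELOVL5 had the smallest adjusted p there, 0.0602, at -0.29 (95% interval -0.44 to -0.15), and the count was 1 without Enza library 3 or E2 with Enza library 3.

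No change of these genes with OSU-ERb-12 passed the test. limma called 0 of the 37 in LNCaP, C4-2 and 22Rv1, against 0.014%, 0% and 0% of all genes. With voom weights the count was 0 in each line as well. At an unadjusted limma p under 0.05 were 4, 0 and 2 of the 37, against 6.64%, 2.82% and 2% of all genes. Added to Enza, OSU-ERb-12 gave 0 calls in the 3 lines, against 0.0982%, 0% and 0.101% of all genes, and 0 with voom weights. Here 9, 2 and 6 of the 37 had an unadjusted limma p under 0.05, against 8.37%, 6.92% and 9.3% of all genes. The 9 in LNCaP were 4 higher and 5 lower. The mean effect over the 3 lines gave 0 as well, against 0% of all genes, and 0 with voom weights. For the mean effect 6 of the 37 had an unadjusted limma p under 0.05, against 5.1% of all genes. ABCA1 had the smallest p of these, -0.26 ± 0.08 (limma, unadjusted p = 0.00188, adjusted p = 0.786). ABCA1 was at 1.83, 1.61 and 1.83 CPM in LNCaP, 0.901, 0.870 and 1.27 CPM in C4-2 and 2.17, 1.58 and 1.61 CPM in 22Rv1. The OSU-ERb-12 and vehicle values of ABCA1 were apart in LNCaP and overlapped in the other lines. ABCG1 followed at -0.15 ± 0.05 (limma adjusted p = 0.864).

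For ELOVL5 the interval of the OSU-ERb-12 difference was narrow. It ran from -0.06 to 0.09 log2 units in LNCaP, from -0.10 to 0.06 in C4-2 and from -0.11 to 0.09 in 22Rv1, and ELOVL5 stood at 363, 382.5 and 375 CPM in LNCaP. Over the 37 genes in LNCaP the OSU-ERb-12 differences lay between -0.33 and 0.11, and 36 of the 37 were under 0.2 in size. E2 and OSU-ERb-12 were given at the same dose and time.

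The E2 effect differed among the 3 lines for 19 of the 37 genes by an F test, against 29.1% of all genes, and the Enza effect for 8, against 13.3% of all genes. The E2 count was 11 without C4-2 E2 library 3, 12 without 22Rv1 vehicle library 1 and 10 without the libraries that stood apart. The smallest adjusted p were those of ELOVL5 (1.12e-08), SCAP (2.4e-05) and ABCA1 (3.26e-05) for E2, and ELOVL7 (1.27e-13), ELOVL5 (6.88e-10) and ABCA1 (1.46e-06) for Enza.

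With vehicle the lines differed in most of these genes. In C4-2 against LNCaP 29 of the 37 differed, 18 higher and 11 lower, against 66.7% of all genes, and cyclic loess gave 15 higher and 15 lower. In 22Rv1 34 differed from LNCaP, 21 higher and 13 lower, against 83.3% of all genes, and 34 from C4-2, 20 higher and 14 lower, against 84.7% of all genes. With total read scaling the median of all genes was -0.10 between C4-2 and LNCaP, 0.09 between 22Rv1 and LNCaP and 0.22 between 22Rv1 and C4-2, where it had been 0.00, -0.03 and -0.02, so the direction of differences of that size depends on the scaling. Without the libraries that stood apart the counts were 29 (16 higher, 13 lower), 33 (20 and 13) and 34 (20 and 14); LSS and SCAP lost their calls between C4-2 and LNCaP (adjusted p = 0.0768 and 0.0904).

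The sterol enzymes were mostly higher in 22Rv1 and the fatty acid enzymes mostly lower. Of 18 sterol enzymes 16 were higher and 1 lower in 22Rv1 than in LNCaP, with a median of 0.50 log2 units, against -0.03 over all genes. Called were 94.4% of the sterol enzymes, against 83.3% of all genes, of which 40.4% were higher and 43% lower. MVD was at 74.7, 71.2 and 74.4 CPM in 22Rv1 and 17.0, 18.03 and 17.6 CPM in LNCaP, a difference of 2.04 ± 0.05. HMGCS1 differed by 1.42 ± 0.04 and CYP51A1 by 1.15 ± 0.04, and NSDHL (-0.03) was not called. HSD17B7 was called at 0.15 (adjusted p = 0.0398), but without the libraries that stood apart it was at 0.10 (adjusted p = 0.231), which left 15 higher and 1 lower. Of 11 fatty acid enzymes 2 were higher and 8 lower, 90.9% in all, with a median of -0.50, against -0.03 over all genes. FADS2 was at 72.2, 68.2 and 73.8 CPM in 22Rv1 and 741, 774 and 817 CPM in LNCaP, a difference of -3.44 ± 0.05 (adjusted p = 4.16e-48). ELOVL7 and ELOVL5 were lower by -1.73 and -1.63, whereas SCD and ELOVL6 were higher by 1.70 and 1.61.

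SREBF1 was lower in 22Rv1 than in LNCaP by -1.67 ± 0.03, at 114, 108 and 117 CPM against 365, 360.3 and 360.4 CPM, while SCAP was higher by 0.69 ± 0.04. ABCG1 was lower by -2.06 ± 0.09, and ABCA1 was not called (-0.08). In C4-2 the difference from LNCaP was largest for ELOVL7, 1.35 ± 0.07, followed by FDFT1, 0.91 ± 0.04. ABCA1 and HSD17B7 were lower in C4-2 by -0.70 and -0.50, and MYLIP was higher by 0.69. Fatty acid enzymes were called higher in 8 and lower in 2 cases of 11 in C4-2, and sterol enzymes in 5 and 7 of 18. That is 90.9% and 66.7% of them, against 66.7% of all genes, so the sterol share equalled that of all genes.

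**Figure D4:**
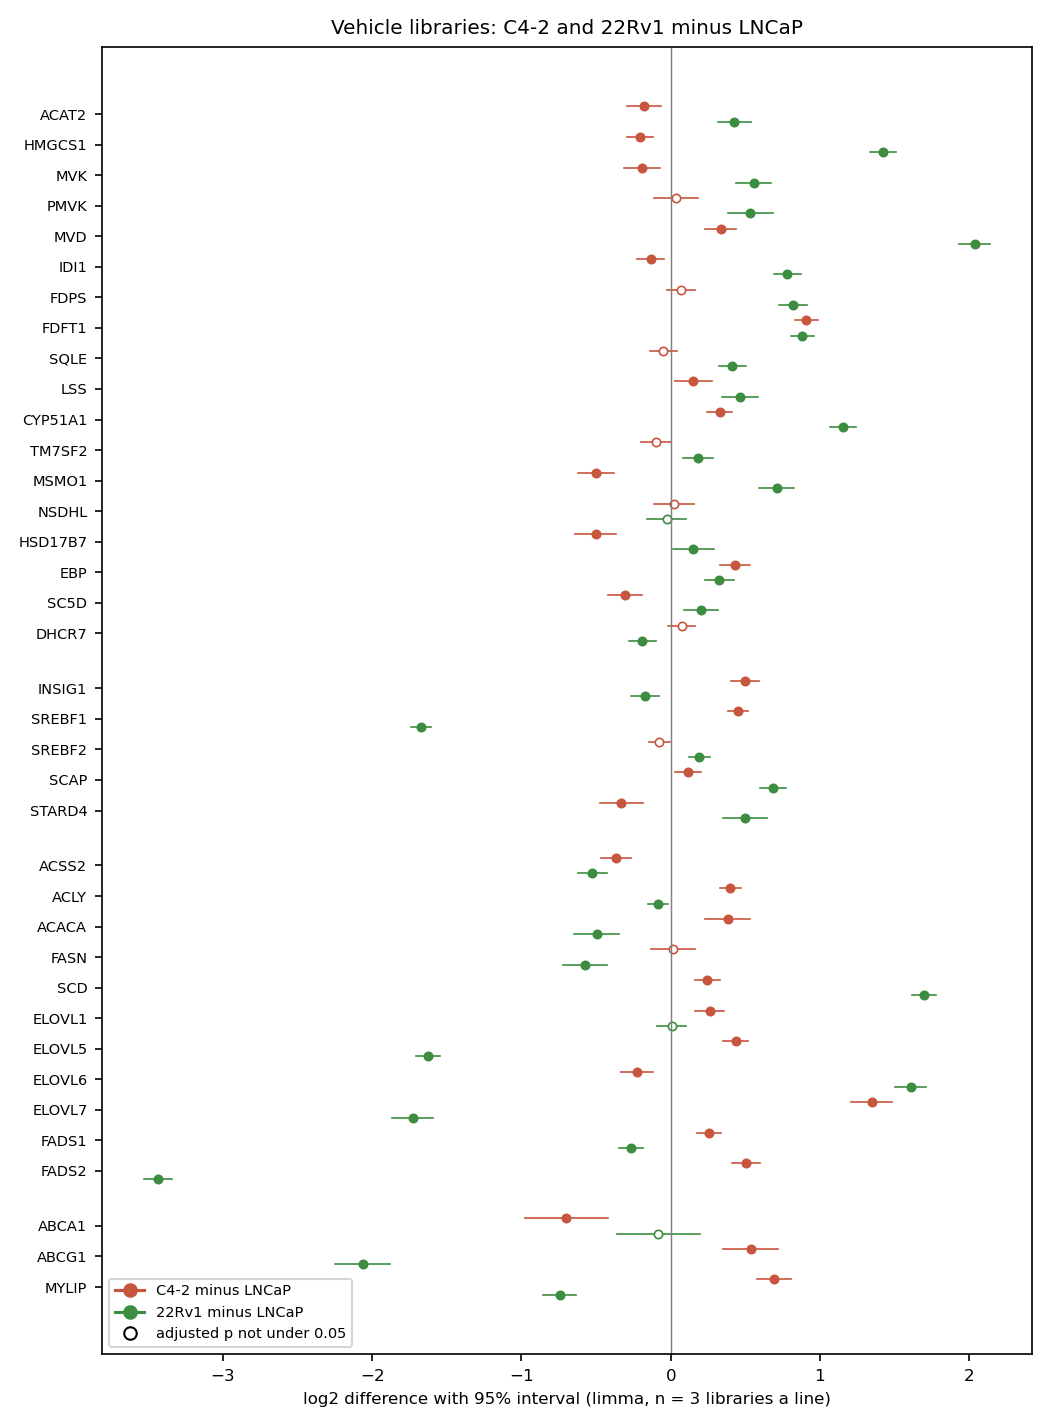
Log2 difference at vehicle of C4-2 and of 22Rv1 from LNCaP for each of the 37 genes, with 95% intervals (3 libraries a line); open points did not pass an adjusted p of 0.05. Of the sterol enzymes 16 of 18 are called higher in 22Rv1, against 40.4% of all genes, and FADS2 lies lowest at -3.44.

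Further genes of the same pathways were taken from lists of 19 sterol genes, 28 fatty acid genes and 7 liver X receptor targets outside the 37. The shares of all genes called, given above, were 24.9%, 5.82% and 27.7% with E2 and 20.4%, 8.44% and 0.659% with Enza in LNCaP, C4-2 and 22Rv1. Of the sterol genes tested, 6 rose and 2 fell with E2 in LNCaP (of 18), 2 rose in C4-2 (of 18) and 7 rose and 1 fell in 22Rv1 (of 19); with Enza 1 rose and 7 fell in LNCaP, 4 fell in C4-2 and 0 were called in 22Rv1. That is 44.4%, 11.1% and 42.1% of those tested with E2 and 44.4%, 22.2% and 0% with Enza. Of the fatty acid genes 2 rose and 7 fell with E2 in LNCaP (of 23), 2 rose and 2 fell in C4-2 (of 22) and 7 rose and 2 fell in 22Rv1 (of 23). With Enza 5 of these fatty acid genes rose and 3 fell in LNCaP, 1 rose and 2 fell in C4-2 and 0 were called in 22Rv1. Called fatty acid genes were 39.1%, 18.2% and 39.1% of those tested with E2 and 34.8%, 13.6% and 0% with Enza. Of the liver X receptor targets limma called 0 with E2 in any line (4, 4 and 6 tested), and with Enza 1 rose in LNCaP and 1 fell in C4-2.

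ACSL3, which activates long-chain fatty acids, rose with E2 by 1.70, 0.87 and 1.17 in LNCaP, C4-2 and 22Rv1 (adjusted p = 1.19e-21, 1.98e-13 and 2.46e-16), and fell with Enza by 0.70 and 0.53 in LNCaP and C4-2. ELOVL2, a further elongase of polyunsaturated fatty acids, rose with E2 by 1.46, 0.61 and 0.93 and fell with Enza by 0.96 and 0.76 in LNCaP and C4-2. DGAT2, which makes triglyceride, fell with E2 by 0.43, 0.28 and 0.31 and rose with Enza by 0.29 in LNCaP. INSIG2, the partner of INSIG1, fell by 0.24 with E2 and rose by 0.48 with Enza in LNCaP. LRP8, a lipoprotein receptor, fell by 0.48 with Enza in LNCaP and by 0.28 with E2 in 22Rv1.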

How the data were processed

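Trimming, counting and scaling were done by the authors. The submitters' processing notes list the tools FastQC, Trimmomatic, edgeR and featureCounts and build hg38. The sources used here give neither tool versions nor the counting strand. A stranded total RNA kit was used, per the labels. The deposited values are labelled CPM but are a score: from the values, each is log2 of CPM after 0.5 reads were added, divided by 1 factor per library so that a column sums to 1000000, and 24.3 to 30.1% of a column is negative. Solving for that factor and the effective library size returned reads that lay within 0.01 of a whole number in 100% of cases, at most 9.3e-08 away, and CPM was computed from these with the authors' effective sizes.

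Because the deposited unit is not counts, no count model was run. limma 3.58.1 in R 4.3.3 was fitted with a trended prior to log2(CPM + 0.5), separately for the 18 libraries of a line (12 residual degrees of freedom) and, between lines, over all 54 (36). Such differences understate the change of low genes. P-values are two-sided and Benjamini-Hochberg adjusted over all genes of a comparison, with 0.05 as the threshold. Alternatives changed the pseudocount, filter, scaling, weights, replicate block, fit and libraries; cyclic loess and leaving out the libraries that stand apart were chosen after seeing the data. Python 3.11.15, numpy 2.4.6, pandas 2.3.3 and matplotlib 3.10.9 made the tables and figures.

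The members and all lists were chosen with earlier results of these data known. All 37 members are covered: called members with the smallest adjusted p, up to 6 a gene group, get full statistics, the rest counts and ranges, and at most 4 other pathway genes are named per comparison. Members were matched by the gene column in 27 cases and by gene ID in the others; RefSeq matched 18917 of 19225 rows. Coordinates are of GRCh38.p14. Some listed pathway genes are not reported here.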

Additional observations from a re-analysis of the deposited data

Results flagged for a closer look

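The results below were picked out because the effect of an agent differed among the 3 lines by an F test (limma, adjusted p under 0.05); no explanation was weighed. For E2, the adjusted p was 1.12e-08 for ELOVL5, 2.4e-05 for SCAP, 3.26e-05 for ABCA1, 0.000207 for HSD17B7, 0.000391 for CYP51A1 and 0.00119 for ELOVL7. It was 0.00225 for TM7SF2, 0.00277 for SCD, 0.0038 for ELOVL6, 0.00557 for EBP, 0.0121 for FASN, 0.0132 for NSDHL, 0.019 for ACAT2 and 0.0236 for ACACA. The weakest were 0.0435 for HMGCS1, 0.0446 for SC5D, 0.046 for ELOVL1, 0.0465 for MVK and 0.048 for FADS1. Without the libraries that stood apart the count for E2 fell from 19 to 10, and values of single genes without them are not given. In the separate fits CYP51A1 was called lower in C4-2, and EBP, ACAT2 and MVK were called higher in 22Rv1.

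For Enza, the adjusted p was 1.27e-13 for ELOVL7, 6.88e-10 for ELOVL5, 1.46e-06 for ABCA1 and 0.000206 for ABCG1. It was 0.0108 for FASN, 0.0112 for FDFT1, 0.0409 for HSD17B7 and 0.0422 for EBP. FASN fell with Enza in LNCaP (-0.24) and stood at 0.19 in C4-2 and -0.10 in 22Rv1.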

How the results depend on the processing

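Of the 223 called values of single genes, 221 kept direction and threshold with a pseudocount of 0.1 CPM, 212 without the filter, 223 with TMM scaling, 184 with total read scaling, 222 with voom weights and 200 with cyclic loess. TMM scaling gave the same medians over all genes and the same member calls as the authors' effective sizes. It is therefore no separate check of the scaling. Directions turned for SCAP in C4-2 against LNCaP at vehicle (0.12, but -0.007 with total read scaling and -0.024 with cyclic loess), for ACLY in 22Rv1 against LNCaP (-0.09, but 0.038 and 0.035) and for ACSS2 in 22Rv1 against C4-2 (-0.16, but 0.084 with total read scaling). None of these turned values was itself called, and the cause was not tested. Member counts moved by over 1.5 times as follows, and the cause was not tested. Total read scaling took the 22Rv1 E2 count from 18 to 11. Cyclic loess took the C4-2 count of E2 with Enza against E2 from 2 to 5. One fit of all libraries took the 22Rv1 interaction count from 0 to 1. Leaving out the libraries that stand apart, which also leaves fewer samples, took the C4-2 counts from 5 to 2 (E2), from 8 to 3 (Enza) and from 2 to 1 (interaction), and the count of E2 effects that differ among lines from 19 to 10; dropping the filter also took that C4-2 interaction count to 1. With each library left out, the E2 counts ran from 15 to 20 in LNCaP, 3 to 4 in C4-2 and 12 to 21 in 22Rv1, and the Enza counts from 11 to 13, 3 to 7 and 0 to 0. E2 with Enza against Enza gave 13 to 18, 4 to 6 and 5 to 10, E2 with Enza against E2 15 to 19, 2 to 4 and 1 to 1, and the interaction 5 to 7, 1 to 2 and 0 to 1. Effects that differ among lines gave 11 to 21 for E2 and 6 to 10 for Enza, and the vehicle comparisons 27 to 29, 32 to 34 and 34 to 35. OSU-ERb-12 gave 0 under every alternative run. Same-numbered libraries did not pair: the correlation of their deviations ran from -0.515 to 0.262, and in no comparison were all above 0.1. With the replicate block 218 of the 223 values kept their call, 5 lost it, and no member count moved by over 1.5 times. Depth limits ABCA1 most, with 20 reads in its lowest library.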
